A study of Homo sapiens with 2 samples.

Results

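The human globin genes lie in an alpha cluster on chromosome 16 and a beta cluster on chromosome 11, and H3K27me3 over both was compared here in HCT116 cells, a long-established line from a human colorectal carcinoma. All bins of 1 kb between 100001 and 300000 of chromosome 16 (200 bins) and between 5200001 and 5350000 of chromosome 11 (150 bins) were taken on hg19. These are 350 bins, of which 43 on chromosome 16 were listed in neither library, beside 2736177 bins listed in at least 1 library for chromosomes 1 to 22 and X. The windows hold 8 globin genes of the main set: HBZ, HBA2 and HBA1 on chromosome 16, and HBE1, HBG2, HBG1, HBD and HBB on chromosome 11. The series held 1 group of 2 libraries, HCT116 cultures with no treatment named in the labels, each immunoprecipitated with an antibody to H3K27me3 and described as biological replicates. Replicate 1 held 53187504 reads and replicate 2 held 97031399. Neither an input library nor RNA was analysed here, so the cell line was not checked against its marker genes. The level of a bin is its read count over the library's mean per listed autosomal bin, which was 22 reads in replicate 1 and 37.5 in replicate 2, and a bin absent from a file counts as 0. The median listed autosomal bin stood at 0.409 and 0.373. Gene positions on hg19 were taken from general knowledge to the nearest bin, and the order of the genes and their spacing were compared with a RefSeq table of GRCh38.

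Haemoglobin is built from alpha-type and beta-type chains, and red cell precursors switch the genes on in the order in which they lie. HBZ and HBE1 serve the embryo, HBG2 and HBG1 the fetus, HBA2 and HBA1 the fetus and adult, HBD and HBB the adult. Each cluster is driven by distant elements, the alpha genes by HS-40 inside an intron of NPRL3 and the beta genes by the locus control region upstream of HBE1. Outside the red cell lineage the genes are largely silent. H3K27me3, the mark laid down by Polycomb repressive complex PRC2, is known for covering silent genes, and its nucleation is known to favour CpG-rich DNA. The alpha cluster is known as GC-rich and close to the chromosome end among widely expressed genes, and the beta cluster as AT-rich and embedded among olfactory receptor genes.

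The contrast in base composition is shown by 4 stretches of 250 bases that end at an annotated gene start, with each CpG in capitals. They were taken from RefSeq sequences on GRCh38.p14, whose coordinates differ from those of hg19 used for the reads. HBM, an alpha-like gene between HBZ and HBA2, and NPRL3, the neighbour that houses HS-40, stand for chromosome 16. HBD and the olfactory receptor gene OR51V1 stand for chromosome 11.

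HBM, chr16:165728-165977, plus strand: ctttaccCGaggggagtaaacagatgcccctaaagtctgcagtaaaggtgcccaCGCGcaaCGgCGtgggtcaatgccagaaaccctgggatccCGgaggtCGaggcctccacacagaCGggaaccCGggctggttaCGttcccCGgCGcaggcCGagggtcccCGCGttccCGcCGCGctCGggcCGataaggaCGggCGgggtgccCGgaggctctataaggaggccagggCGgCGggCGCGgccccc

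NPRL3, chr16:138674-138923, minus strand: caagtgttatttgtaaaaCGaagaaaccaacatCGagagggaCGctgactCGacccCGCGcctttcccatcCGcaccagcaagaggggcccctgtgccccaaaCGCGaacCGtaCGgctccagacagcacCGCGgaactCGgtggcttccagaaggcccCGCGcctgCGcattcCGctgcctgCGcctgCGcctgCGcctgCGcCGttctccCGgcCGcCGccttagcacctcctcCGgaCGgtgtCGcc

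HBD, chr11:5234484-5234733, minus strand: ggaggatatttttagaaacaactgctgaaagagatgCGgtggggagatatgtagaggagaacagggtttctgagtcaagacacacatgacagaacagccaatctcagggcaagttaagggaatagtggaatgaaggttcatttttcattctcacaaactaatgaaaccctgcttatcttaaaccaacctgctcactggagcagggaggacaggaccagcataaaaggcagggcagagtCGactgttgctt

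OR51V1, chr11:5200683-5200932, minus strand: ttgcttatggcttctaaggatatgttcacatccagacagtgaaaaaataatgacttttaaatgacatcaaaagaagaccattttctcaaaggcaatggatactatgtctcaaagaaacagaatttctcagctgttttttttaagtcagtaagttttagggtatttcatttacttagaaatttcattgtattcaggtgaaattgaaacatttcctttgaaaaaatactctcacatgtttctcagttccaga

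The HBM stretch held 27 CpG at 69.2% G and C, and the NPRL3 stretch held 29 at 66.4%. The HBD stretch held 2 CpG at 45.2%, and the OR51V1 stretch held 0 at 30.8%. Over 35116 such stretches the median was 11 CpG with quartiles of 3 and 23, so HBM and NPRL3 lay above the upper quartile and HBD and OR51V1 below the lower. At least 1 CpG, read on 1 strand since the motif CG is its own reverse complement, occurred in 93.9% of them. Of the 21 genes placed in the windows 10 matched the sequence table, and HBD was the match among the 8 globin genes of the main set. The 8 matched genes on chromosome 16 ranged from 17 CpG at LUC7L to 30 at RHBDF1.

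H3K27me3 was low over the alpha cluster and high over the beta genes. The 33 bins from 202001 to 235000, which hold HBZ, HBM, HBA2, HBA1 and HBQ1, averaged 0.266 in replicate 1 (193 reads, exact Poisson 95% interval 0.230 to 0.306) and 0.347 in replicate 2 (430 reads, 0.315 to 0.382). The 68 bins from 5246001 to 5314000, which run from HBB through HBE1 to the end of the control region, averaged 2.82 (4212 reads, 2.73 to 2.90) and 3.13 (7989 reads, 3.06 to 3.20). The beta cluster therefore stood 10.6-fold above the alpha cluster in replicate 1 (Clopper-Pearson 95% interval 9.17 to 12.3) and 9.02-fold in replicate 2 (8.18 to 9.96), or 9.80 ± 1.11 (SD, n = 2). These intervals cover counting error only and are too narrow, because reads came mostly in even numbers: in the chromosome 16 window 80.6% of the counts from 1 to 10 were even. With 1 group of 2 libraries no test between groups could be made, and the difference is given in each library.

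A bin was called enriched when a one-sided Poisson test, Benjamini-Hochberg adjusted over all listed bins, passed at an adjusted p of 0.05 in each library and both levels reached 2-fold. Of all bins tested 12.2% were called. In the beta cluster 40 of 68 bins (58.8%) were called, and in the beta window 87 of 150 (58.0%). At a fold minimum of 3 the share in the beta cluster was 38.2%. In the alpha window 0 of 200 were called. At an unadjusted p under 0.05 the same Poisson test found 1 bin of the alpha window, the same one in both libraries, from 199001 to 200000. Among stretches of equal length tiled over the autosomes, the alpha cluster ranked at percentile 39.5 in replicate 1 and 46.2 in replicate 2, and the beta cluster at 91.9 and 92.5. The alpha cluster thus lay near the middle of the genome, and its flanks lay lower. Scaled to the median autosomal bin instead of the mean, the cluster levels were 0.790 for alpha and 7.64 for beta, which leaves the ratio within a library as it was.

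Away from the 13 kb next to HBZ, the flanks of the alpha cluster held few reads. With those 13 kb included, the 167 flanking bins averaged 0.0844 in replicate 1 and 0.105 in replicate 2. They ranked at percentile 0.724 and 1.06 among autosomal stretches of that length. The flanks are not a single stretch, since the higher cluster between them is left out. The whole window, cluster included, ranked at 2.59 in replicate 1 and 5.72 in replicate 2 among stretches of its own length. The 13 kb held 142 of their 310 reads in replicate 1 and 278 of 657 in replicate 2. Up to the NPRL3 start the 89 bins averaged 0.0409 and 0.0518. The cluster stood 3.15-fold above the 167 bins in replicate 1 and 3.31-fold in replicate 2, or 3.23 ± 0.114 (SD, n = 2). That contrast depended on the flank: it was 1.53 with flanks of 20 kb, 5.12 with the 300 bins beyond the window (200 kb on one side and the 100 kb left on the side of the chromosome end), and 6.46 when the stretch between NPRL3 and HBZ was counted with the cluster, a choice made after the values were seen. The flank before HBZ averaged 0.0989 and 0.118 and the flank beyond HBQ1 0.0615 and 0.0844. Of the 200 bins in the window 180 lay under 0.5-fold in both libraries, among them the 43 listed in neither library, which count as 0. Of listed autosomal bins 54.2% did, a share that leaves out such unlisted bins. No input library was used here, so copy number, mappability and the recovery of GC-rich DNA cannot be told apart from the amount of the mark in any level given.

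Widely expressed neighbours made up most of that low flank. NPRL3, a subunit of the GATOR1 complex, averaged 0.0404 in replicate 1 (48 reads in 54 bins) and 0.0493 in replicate 2 (100 reads). LUC7L, a splicing factor gene beyond HBQ1, averaged 0.0433 and 0.0647 over 42 bins. MPG, which encodes a DNA repair glycosylase, had 4 and 15 reads in 9 bins. RHBDF1, which encodes a catalytically inactive rhomboid protein, had 14 and 42 reads in 15 bins. SNRNP25, a spliceosome gene, had 8 and 8 in 5 bins. POLR3K, an RNA polymerase III subunit gene, had 3 and 5 reads in its 8 bins, of which 4 lie in the window. FAM234A averaged 0.0770 and 0.112 over its 36 bins, of which 16 lie in the window. None of these genes had a bin called. The 5 bins centred 40 kb upstream of the HBZ start bin, where HS-40 lies by general knowledge, held 0 reads in replicate 1. A count of 0 allows 3 reads, a level of 0.0273, and its exact Poisson interval reaches 0.0335. Replicate 2 held 6 reads, a level of 0.0320 (exact Poisson interval 0.0117 to 0.0696). Both levels lay under the mean of NPRL3 in the same library, but the interval in replicate 2 includes that mean of 0.0493. The intervals are too narrow where reads come in even numbers. With so few reads, whether these bins lie below the rest of NPRL3 cannot be decided.

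The reads of the alpha window were concentrated between the start of NPRL3 and HBQ1. The 43 bins from 189001 to 232000 held 333 of 503 reads (66.2%) in replicate 1 and 702 of 1087 (64.6%) in replicate 2. The highest bin of the window was not in a gene. It lay from 199001 to 200000, in the 13 kb between NPRL3 and HBZ, with 37 and 60 reads, a level of 1.68 and 1.60. That stretch of 13 kb averaged 0.496 and 0.570, 1.87-fold and 1.64-fold the cluster itself. Inside the cluster the highest bin by the mean over libraries, from 208001 to 209000 between HBZ and HBM, held 16 and 48 reads, a level of 0.727 and 1.28. In replicate 1 the highest was the bin from 224001 to 225000. Both bins between HBA2 and HBA1, from 224001 to 226000, held 23 and 15 reads in replicate 1 and 22 and 45 in replicate 2. These 4 bins were the ones in the window that reached the autosomal mean in at least 1 library.

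**Figure D1:**
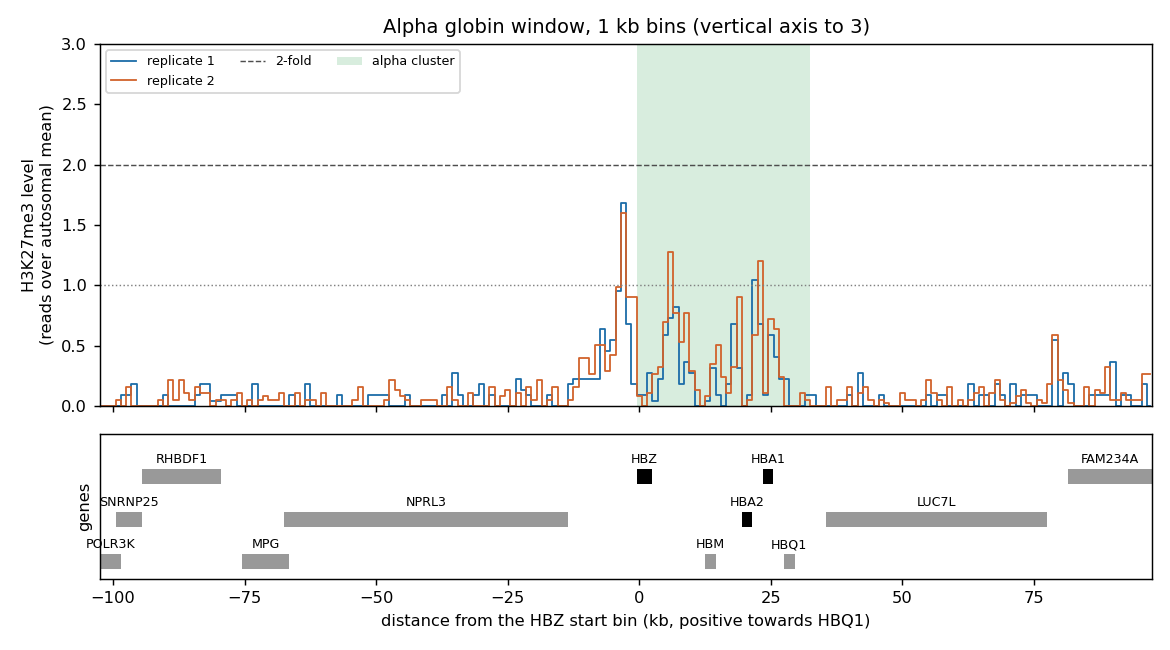
H3K27me3 level per 1 kb bin over the alpha globin window in each library, against the distance in kb from the bin of the HBZ start, with the span of the rule shaded and genes drawn as bars (black for HBZ, HBA2 and HBA1). The dotted line is the autosomal mean and the dashed line 2-fold. The highest bin reached 1.68 and 1.60, just before HBZ, and no bin reached 2-fold.

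Level by gene was low throughout the alpha cluster. HBZ, the embryonic alpha-type chain, had 10 reads in replicate 1 and 7 in replicate 2 over 3 bins, a level of 0.107 ± 0.0632 (SD, n = 2). HBA2, an adult alpha chain gene, had 2 reads in each library over 2 bins, and its start bin had 0 in both. These 2 reads are under the 3 reads that a count of 0 allows. HBA1, which encodes the same alpha chain, had 15 and 31 reads over 2 bins, a level of 0.377 ± 0.0510 (SD, n = 2), of which its start bin gave 2 and 4 reads. HBM had 8 and 16 reads. HBQ1, a theta-type gene of unclear function, had 5 reads in replicate 1 and 0 in replicate 2. The 22 bins of the cluster that touch no gene averaged 0.316 and 0.453, against 0.165 and 0.136 in the 11 bins that touch a gene, a ratio of 2.63 ± 1.01 (SD, n = 2). HBA2 and HBA1 are near-identical copies, and how reads that fit both were treated is not given in the sources used here, so a low count there cannot be told apart from reads left out for mapping to 2 places.

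The beta genes were marked along almost their whole length. The 46 bins from 5246001 to 5292000 averaged 3.65 in replicate 1 and 4.07 in replicate 2, with 39 of 46 bins (84.8%) called and 0 under 0.5-fold. They ranked at percentile 95.5 and 96.1 among autosomal stretches of 46 kb. The lowest bin there by the mean over libraries, from 5279001 to 5280000 between HBG2 and HBE1, was at 1.45 and 1.73, and the lowest in replicate 1 was a bin of HBG1 at 1.36. The highest bin of the window, from 5273001 to 5274000 between HBG1 and HBG2, held 165 and 281 reads, or 7.50-fold and 7.49-fold the mean. Allowing gaps of 1 bin, called bins joined into a run of 33 kb from 5246001 to 5279000, over HBB, HBD, HBBP1, HBG1 and HBG2, and a run of 11 kb from 5282001 to 5293000 over HBE1.

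**Figure D2:**
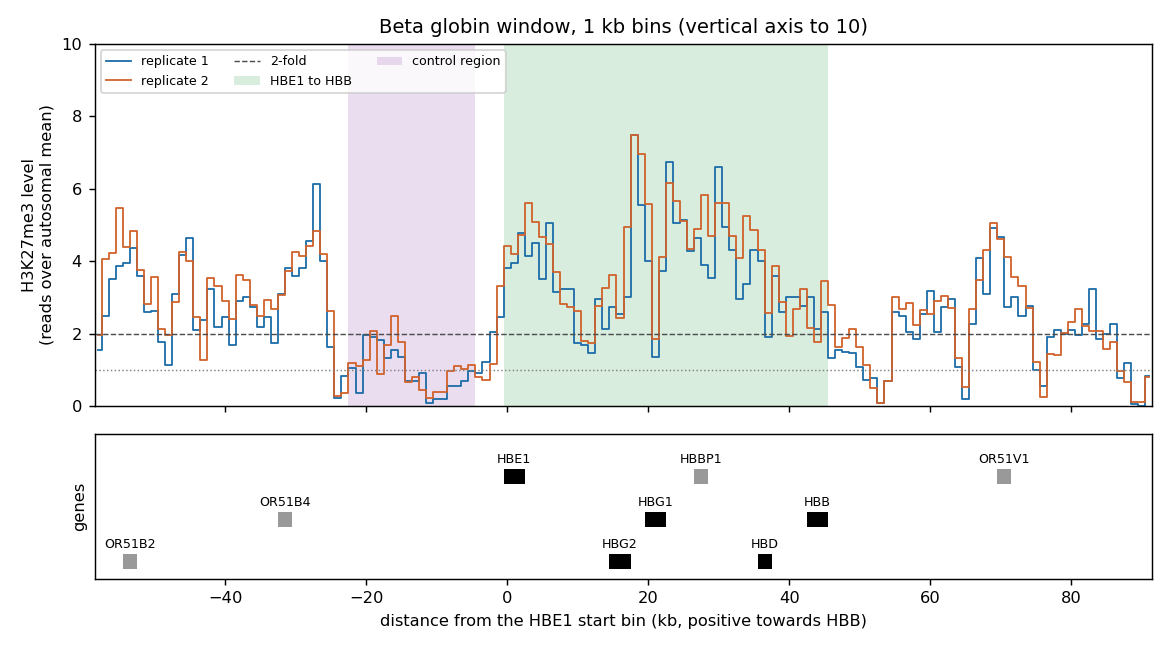
H3K27me3 level per 1 kb bin over the beta globin window in each library, against the distance in kb from the bin of the HBE1 start, with positive distances towards HBB. The genes HBE1 to HBB and the control region are shaded, and the vertical axis is longer than in the alpha profile. Both libraries reached 7.50 and 7.49 between HBG1 and HBG2 and fell to 0.0909 and 0.213 inside the control region.

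Among the beta-type genes HBE1 and HBB, the outermost of the cluster, differed in level. HBE1, the embryonic beta-type chain, had 276 reads in replicate 1 and 501 in replicate 2 over 3 bins, a level of 4.18 and 4.45. HBB, the adult beta chain, had 170 and 277 reads over 3 bins, a level of 2.58 and 2.46. HBE1 was thus the higher of the pair in both libraries, and their values did not overlap. HBD, the minor adult chain, stood at 2.95 and 3.44 (130 and 258 reads in 2 bins). The fetal genes HBG1 and HBG2 stood at 3.03 and 3.85 and at 2.76 and 3.67. In order of the mean over libraries came HBB at 2.52 ± 0.0817, HBD at 3.20 ± 0.341, HBG2 at 3.21 ± 0.644, HBG1 at 3.44 ± 0.577 and HBE1 at 4.32 ± 0.189 (each SD, n = 2). HBD, HBG2 and HBG1 overlapped in their values, whereas HBB lay below and HBE1 above the range of these 3. In replicate 1 HBB and HBG2 were close, with 170 and 182 reads over 3 bins each, a gap within counting error. The pseudogene HBBP1 stood at 4.27 and 5.37, above HBE1 in both libraries but only narrowly in replicate 1.

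The order of the genes was not the same at their start bins. These held 84 and 166 reads at HBE1, 60 and 136 at HBG2, 88 and 209 at HBG1, 88 and 162 at HBD and 66 and 81 at HBB, all at 2.16-fold or more in both libraries. HBG1 was above HBE1 there in both libraries, and HBG2 was below HBB in replicate 1. In replicate 1 these gaps, 88 against 84 reads and 60 against 66, were within counting error. They do not settle an order in that library. HBD and HBE1 were close, at 88 and 84 reads in replicate 1 and 162 and 166 in replicate 2. By contrast the start bins of HBZ, HBA2 and HBA1 held at most 2 reads in replicate 1 and at most 4 in replicate 2. The 10 bins from HBB to HBD averaged 2.86 and 2.89 and the 14 bins from HBBP1 to HBG2 averaged 4.29 and 4.93, 1.5-fold and 1.71-fold higher. In the body of HBG1 the bin from 5270001 to 5271000 held 30 and 70 reads, a level of 1.36 and 1.86, against 82 and 154 reads in the bin on its HBB side and 88 and 209 in the bin on its HBG2 side. HBG1 and HBG2 are near-identical too, with the same limit as for HBA2 and HBA1, and the bins that touch a beta-type gene averaged 3.26 and 3.80 against 3.86 and 4.21 between genes.

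**Figure D3:**
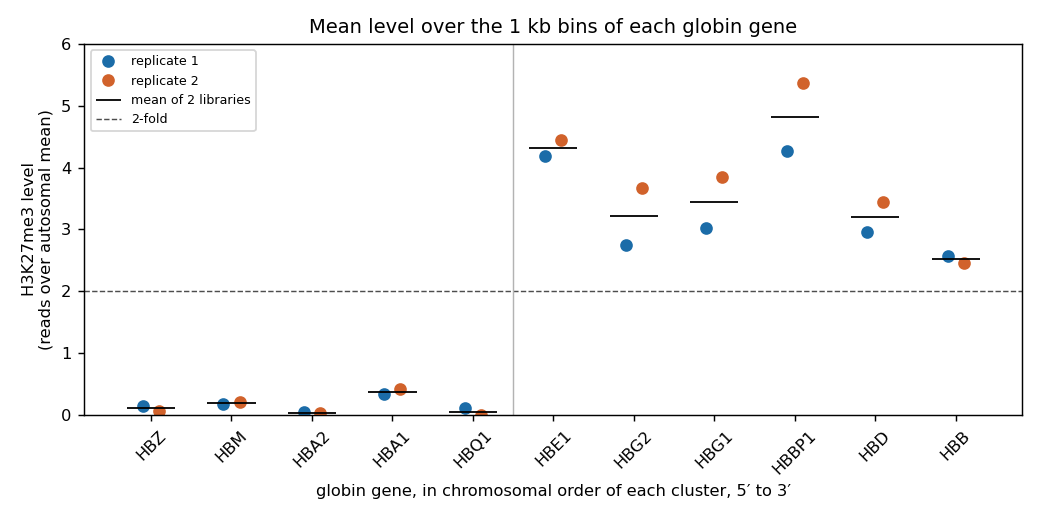
Mean H3K27me3 level over the 1 kb bins of each globin gene in each library (points) and the mean of both (bars), with the alpha-type genes left of the vertical line and the beta-type genes right of it. The highest alpha-type value is 0.413 at HBA1 in replicate 2, and the lowest beta-type value is 2.46 at HBB in replicate 2.

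The locus control region was a low stretch between marked sequence on both sides. The 18 bins from 5296001 to 5314000, which lie 5 to 22 kb upstream of the HBE1 start bin, averaged 0.932 in replicate 1 (369 reads) and 1.09 in replicate 2 (736 reads), and 0 were called; at an unadjusted p under 0.05 the Poisson test found 2 in both libraries. The beta genes stood 3.92-fold above the control region in replicate 1 (Clopper-Pearson 95% interval 3.52 to 4.38) and 3.74-fold in replicate 2 (3.46 to 4.04). The flanks of the window stood 2.53-fold and 2.38-fold above it. The longest stretch of the window with no called bin ran over 24 kb from 5293001 to 5317000, at 0.985 and 1.07. Within the control region the bins from 5300001 to 5303000, 3 in a row, held 4, 4 and 2 reads in replicate 1 and 15, 15 and 8 in replicate 2. The lowest of them was at 0.0909 and 0.213. Those 3 were the bins of the control region that lay under 0.5-fold in both libraries. Among autosomal stretches of 18 kb the control region nevertheless ranked at percentile 72.4 and 74.1.

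Marked chromatin went on beyond the beta cluster on both sides. The 82 flanking bins averaged 2.35 in replicate 1 and 2.59 in replicate 2, with 47 (57.3%) called. The cluster with its control region stood 1.20-fold above them in replicate 1 and 1.21-fold in replicate 2, or 1.20 ± 0.00745 (SD, n = 2). Without the control region, a choice made after the values were seen, the genes stood 1.55-fold and 1.57-fold above the flanks. The flanks were unequal: the side beyond HBB averaged 1.94 and 2.10 and the side beyond the control region 2.89 and 3.23. Olfactory receptor genes, which encode odorant receptors of the nasal epithelium, also carried the mark. OR51V1 beyond HBB held 163 and 328 reads in 2 bins, a level of 3.70 and 4.37. OR51B4 stood at 3.45 and 3.40 and OR51B2 at 4.16 and 4.61 on the side of the control region. All 6 bins of these receptor genes were called.

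The beta flanks also held narrow troughs. Of the 82 flanking bins 4 lay under 0.5-fold in both libraries, and across the whole window 7 of 150 did (4.67%). The lowest, from 5201001 to 5202000, held 0 and 4 reads and its neighbour 1 and 4. A further one from 5238001 to 5239000 held 2 and 3 reads, within a stretch of 9 kb beyond HBB, from 5237001 to 5246000, that had no called bin. The last, from 5315001 to 5316000, held 5 and 10 reads at the far edge of the control region. Whether reads can be placed in these bins was not tested.

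**Figure D4:**
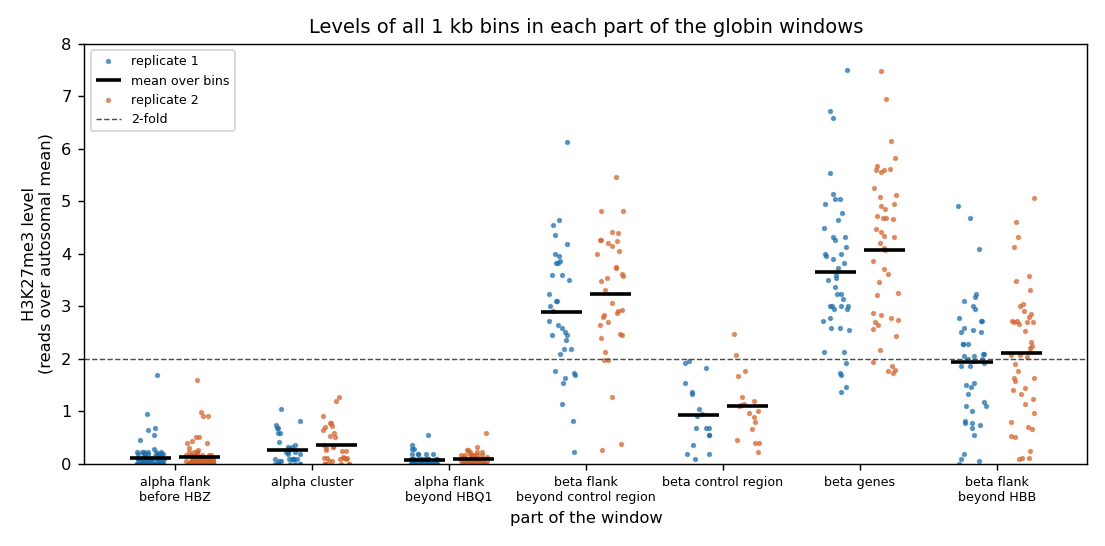
Levels of all 1 kb bins in each part of both windows, as points per library with the mean over bins as black bars, without the 4 bins between HBE1 and the control region. The alpha parts stay under 2-fold, the beta genes average 3.65 and 4.07, and the control region averages 0.932 and 1.09 between flanks at 2.89 and 3.23 on its far side and genes on its near side.

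Set against each other as ratios, the windows differed more in their flanks than in their clusters. The beta flanks stood 27.9-fold above the alpha flanks in replicate 1 and 24.8-fold in replicate 2, whereas the beta cluster stood 10.6-fold and 9.02-fold above the alpha cluster. Over the whole windows the difference was 22.4-fold and 19.6-fold. The flank ratios are taken over alpha flanks near the floor, at 0.0844 and 0.105, with a median bin of 0 in replicate 1. As differences in level the order was the reverse. The beta and alpha clusters were at 2.82 and 0.266 in replicate 1 and at 3.13 and 0.347 in replicate 2. The beta and alpha flanks were at 2.35 and 0.0844 and at 2.59 and 0.105. The alpha cluster stood above the mean of its sparse flanks but under the 13 kb next to it before HBZ, and the beta genes stood above flanks that were themselves marked. The libraries gave the same order of all these parts. Across the bins of the beta window Pearson's r between libraries was 0.919 over 150 bins, and across the alpha window it was 0.812 over 200 bins, with Spearman's rho of 0.922 and 0.441; neighbouring bins share domains and the bins of the alpha window hold few reads, so these describe the profiles only.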

How the data were processed

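H3K27me3 ChIP-seq was analysed in 1 group of 2 HCT116 libraries. The authors deposited 1 file of read counts per library, in bins of 1000 bases and with no scaling, as a text deposited beside the files states. Alignment was with BWA 0.7.12 to hg19, per the submitters' processing notes. What counted the reads, and how duplicates, mapping quality and reads with several places were handled, is not stated in the sources used here.

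Absent bins were set to 0, and levels, sums and ratios were computed per library with pandas 2.3.3 and numpy 2.4.6 under Python 3.11.15. Tests and intervals came from scipy 1.17.1 and plots from matplotlib 3.10.9. Enrichment was tested per bin with a one-sided Poisson test over chromosomes 1 to 22 and X, and the call was tested on simulated data. The simulated background was even apart from planted bins, whereas the median listed autosomal bin of the real data stood at 0.409 and 0.373. The simulation therefore does not show the error rate of the call on these data. Stretches for percentiles tiled the autosomes and needed at least 50% of bins listed. Named genes were the 8 globin genes, HBM, HBQ1, HBBP1 and 10 flanking genes, with the extreme bins of each window. Their order was that of the RefSeq table, and spacing differed by at most 240 bases for globin genes and by more at the end of RHBDF1 and the start of FAM234A. The control region was set from 5 to 22 kb upstream of HBE1. Levels are means and SD over libraries with n = 2. The labels call the libraries biological replicates without naming separate cultures, so an SD measures only the spread between them, which may be technical. At the autosomal mean, counting error was 21.3% and 16.3% of a bin's level if reads are independent. It is larger where reads come in even numbers, and the Poisson p-values of the calls share this limit. The test sets a bin against the mean of listed autosomal bins, not against an input or an unmarked background. A called bin is therefore one above that mean, and spread between bins beyond counting error is not covered. The regions, genes and tests were chosen with earlier results of these data known. Alternatives were other scalings, medians, flanks, fold minimums, bins and thinning.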

Additional observations from a re-analysis of the deposited data

How the results depend on the processing

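The alpha cluster stayed under the beta cluster, and 0 of its bins were called, in every alternative run. Some runs could not have changed this. Scaling to the autosomal median bin leaves the ratio within a library as it was, and a fold minimum of 3 can only remove calls. The cluster level of 0.306 for alpha and 2.97 for beta became 0.790 and 7.64 when scaled to the autosomal median bin, 0.245 and 2.51 when scaled to the own chromosome, and 0.130 and 2.70 over the whole windows; with the median over bins the alpha level became 0.211. The ratio of alpha to beta, 0.103, became 0.0738 with medians and 0.0478 over the whole windows. The share of called beta bins, 58.8%, became 38.2% at a fold minimum of 3. The alpha cluster over its flanks, 3.23, became 1.53 with flanks of 20 kb, which hold the stretch between NPRL3 and HBZ, and 5.12 with up to 200 kb beyond the window on each side (100 kb towards the chromosome end), where 119 of 300 bins were listed in neither library and count as 0. It became 6.46 when that stretch was counted with the cluster. The beta cluster over its flanks, 1.20, became 1.25 and 1.24 with those flanks, 1.16 with medians and 1.56 for the genes without the control region. The last setting and the one giving 6.46 were chosen after the data were seen. The causes of these shifts were not tested. Medians gave no value for the alpha flanks, whose median bin was 0 in replicate 1. With 2 libraries, leaving out either replicate only gives the value of the other, which says nothing about stability; the share of beta bins called in 1 library was between 63.2% and 64.7%. No paired analysis was possible because both libraries belong to the same group. Depth limits the alpha genes most: 3 reads in a bin are a level of 0.136 and 0.0799.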

Other observations

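The stretch from 100001 to 300000 was also read on the other autosomes where at least 50% of its bins were listed. Chromosome 16 had the lowest mean of these 15 chromosomes, at 0.114 in replicate 1 and 0.145 in replicate 2. The other 14 ranged, as means over libraries, from 0.192 on chromosome 11 to 2.47 on chromosome 12, with 0.223 on chromosome 4 and 1.65 on chromosome 20. The share of called bins there was 39.5% on chromosome 12 (79 bins) and 30.5% on chromosome 20 (61 bins). It was 0 on chromosomes 16, 11, 4 and 3. Of all bins tested 12.2% were called. Farther in on chromosome 16 the level was 0.0789 and 0.0863 from 300001 to 500000. Towards the chromosome end, from 1 to 100000, 79 of 100 bins were listed in neither library.

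Around the beta globin window the mark continued on both sides. From 5000001 to 5200000, beyond HBB, the mean was 1.92 and 2.07 with 70 of 200 bins called. From 5350001 to 5550000, beyond the control region, it was 2.70 and 2.90 with 135 of 200 called, so the side of the control region was the higher one in both libraries.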
